A study of Mus musculus with 6 samples.

Results

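Histone genes were followed in MC3T3-E1 cells, a preosteoblast line from mouse skull bone, with and without cyanidin-3-O-glucoside (C3G), a plant pigment of the anthocyanin class. The 65 histone genes described here are all genes listed with an FPKM value (fragments per length of the gene model, relative to all mapped fragments of a library) that carry a clustered histone symbol (Hist1h to Hist4h) or are 1 of 10 named variants, and they were taken from 11234 listed genes. They comprised 56 replication-dependent genes, which were 4 H1, 16 H2A, 14 H2B, 10 H3 and 12 H4 genes, and 9 variant genes, H1f0, H1fx, H2afj, H2afv, H2afx, H2afy, H2afz, H3f3a and H3f3b. The annotation holds 70 clustered histone symbols, 14 of which were not listed in these libraries, and the variant H2afy2 was not listed either. A gene was listed only where at least 1 group had a mean FPKM of about 0.50 or more.

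RNA-seq was carried out on 3 libraries of cells given complete medium to which C3G had been added (100 μmol/L, 24 h) and on 3 control libraries of cells given that medium without C3G. The study calls the controls vehicle-treated and does not name the vehicle. All cells were of this 1 established line, of the C57BL/6 strain and at passage 4, and had been held in serum-free medium before the treatment in both groups. The labels number the libraries 1 to 3 in each group without saying that they came from separate cultures, so p values measure only the spread between these libraries, which may be technical. The sequencing kit was stranded and the molecule was total RNA, and whether poly(A) RNA was selected is not given in the sources used here. Such a selection would leave fewer fragments of mRNAs without a poly(A) tail. The depth of the libraries is unknown, since FPKM values keep no fragment counts.

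Histones package DNA, with pairs of H2A, H2B, H3 and H4 forming the nucleosome core and H1 binding the linker. Replication-dependent histone genes lie in clusters, mostly without introns, and are transcribed in S phase. Their mRNAs usually end in a short stem-loop, bound by the stem-loop binding protein Slbp, in place of a poly(A) tail. Variant genes lie alone, are mostly made into polyadenylated mRNA, and supply histones throughout the cell cycle, such as H2A.Z (H2afz) and H3.3 (H3f3a and H3f3b).

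The stem-loop at the mRNA end is shown because it was common in 1 class and rare in the other. Each line below is written 5′ to 3′ from the GENCODE M21 transcript on GRCm38, with the paired stems and the loop between them in capitals. The first 6 genes were chosen to show the recurring forms and an H1, an H2A and an H4 gene of high level, and H2afx is the variant gene that carried a match.
Hist1h2ap: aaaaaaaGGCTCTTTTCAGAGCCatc
Hist1h1c: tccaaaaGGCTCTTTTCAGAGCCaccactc
Hist1h2bk: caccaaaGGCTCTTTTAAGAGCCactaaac
Hist1h4c: aacaaaaGGCCCTTTTCAGGGCCacccaca
Hist1h4i: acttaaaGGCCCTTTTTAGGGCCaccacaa
Hist1h4b: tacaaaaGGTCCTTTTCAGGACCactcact
H2afx: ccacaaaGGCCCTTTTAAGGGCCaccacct
The capitals of Hist1h2ap lay at chr13:21833029-21833044 on the minus strand, 3 bases before the end of its transcript. Those of Hist1h1c lay at chr13:23739512-23739527 on the plus strand, with 840 annotated bases after them. Those of H2afx lay at chr9:44335240-44335255 on the plus strand, with 822 bases after them. All 3 followed the stop codon.

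The search asked for the 16 letters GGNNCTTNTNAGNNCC on the transcript strand, with the letters at positions 3 and 4 able to pair with those at positions 14 and 13. It found a match in 38 of the 56 replication-dependent genes (67.9%), in 1 of the 9 variants (11.1%) and in 3 of the 11146 listed genes that are not histone members (0.0269%). The form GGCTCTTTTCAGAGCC occurred in 22 genes of the H1, H2A, H2B and H3 families. The form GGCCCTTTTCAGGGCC occurred in 6 genes, all of the H4 family. The annotated transcripts of many genes without a match stopped at the coding sequence: Hist1h2ai, for example, had a model of 393 bases and Hist1h4k 1 of 312 bases. No match says only that the letters were not in the annotated transcript.

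The 2 classes also differed in gene structure and base composition. Of the replication-dependent genes, 53 of 56 had a single exon (94.6%), against 4 of 9 variants (44.4%) and 6.24% of all listed genes. Their annotated transcripts ran from 312 to 7425 bases, and those of the variants from 1069 to 4018 bases. Median GC content was 59.3% in replication-dependent genes, 51.0% in variants and 49.6% in all listed genes. A polyadenylation signal, AATAAA in the last 50 bases, was present in 8 replication-dependent genes and in 5 variants. Of the replication-dependent genes, 46 lay on chromosome 13, 9 on chromosome 3 and 1 on chromosome 11.

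Shared sequence limits what the levels of single replication-dependent genes can mean. In 29 of the 56, over 50% of the 75-base stretches of the transcript also occurred in transcripts of other genes, and 53 of the 56 shared at least some. Among the variants H2afz alone passed 50% (61.7%, shared with an annotated transcript of Tmcc1 and with pseudogenes), although 7 of 9 shared some. How the authors divided such reads is not given in the sources used here. Exons on the opposite strand overlapped 19 replication-dependent genes and 6 variants, and the handling of strand in counting is not given either.

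Promoters were taken from RefSeq on GRCm38.p6 as the 250 bases before and 50 bases after each start site, and 60 of the 65 genes had one. The CCAAT box, a binding element of NF-Y that is common in histone promoters, is shown in capitals on either strand (CCAAT or ATTGG) in the 250 bases before the start of H2afz at chr3:137864237-137864486 on the plus strand and of Hist1h2bq at chr13:21810200-21810449 on the minus strand.
H2afz: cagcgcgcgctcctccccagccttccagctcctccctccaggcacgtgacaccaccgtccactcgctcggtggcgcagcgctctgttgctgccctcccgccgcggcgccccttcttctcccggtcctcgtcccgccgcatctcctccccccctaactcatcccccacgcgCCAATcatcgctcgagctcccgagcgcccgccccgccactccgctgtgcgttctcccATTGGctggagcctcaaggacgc
Hist1h2bq: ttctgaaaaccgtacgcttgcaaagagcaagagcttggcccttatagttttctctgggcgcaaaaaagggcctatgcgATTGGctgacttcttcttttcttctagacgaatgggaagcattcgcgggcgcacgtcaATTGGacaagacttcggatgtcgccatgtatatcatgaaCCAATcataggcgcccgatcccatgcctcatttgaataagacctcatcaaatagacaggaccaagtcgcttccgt
The run shown for Hist1h2bq separates it from Hist1h2ao, whose annotated start lies at position 21810465 of chromosome 13 on the plus strand. CCAAT was present on either strand in 44 of 52 replication-dependent promoters (84.6%), in 5 of 8 variant promoters (62.5%) and in 41.1% of all RefSeq promoters of the same length. It was found in every H1, H2A, H2B and H3 promoter of the replication-dependent class that was matched (4, 16, 12 and 9) and in 3 of 11 H4 promoters. The letters TATAAA, which a core promoter element uses, were found in 57.7% of replication-dependent promoters, 12.5% of variant promoters and 15.7% of all promoters. The octamer ATTTGCAT, bound by Oct-1, was found in 6 of 16 H2A and 5 of 12 H2B promoters, in none of the H1, H3 and H4 promoters of that class, and in 1.97% of all promoters. These matches are descriptions of letters, not of binding.

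In every library the variant class had the higher FPKM values, a difference between classes that cannot be told apart from unequal capture of mRNAs with and without a poly(A) tail. The summed FPKM of the 56 replication-dependent genes was 536, 362 and 455 in control libraries 1 to 3 and 422, 388 and 384 in C3G libraries 1 to 3. The 9 variants summed to 1442, 925 and 1075 in the controls and to 1141, 928 and 933 with C3G. Each library thus had the larger sum in the smaller class, and the ratio of the first sum to the second was 0.372, 0.391 and 0.423 in the controls and 0.370, 0.419 and 0.411 with C3G. The 2 groups overlapped in this ratio. Without H1fx, a variant gene with very uneven values described below, the ratio was 0.439, 0.419 and 0.457 in the controls and 0.398, 0.419 and 0.411 with C3G.

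The difference was larger for a typical gene than for the sums. Median FPKM of the replication-dependent genes was 2.14, 1.24 and 1.58 in the controls and 2.08, 1.67 and 1.35 with C3G. For the variants the median was 124, 64.2 and 78.8 in the controls and 86.5, 66.1 and 71.4 with C3G. The variant median was therefore 57.8, 52.0 and 49.95 times the replication-dependent median in the control libraries and 41.5, 39.5 and 53.0 times in the C3G libraries. These are levels per length, and fewer cells in S phase and less RNA per cell cannot be told apart in bulk libraries. Leaving out the genes of which over 50% was shared lowered the mean ratio of sums from 0.396 to 0.152 in the controls and from 0.400 to 0.177 with C3G.

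**Figure D1:**
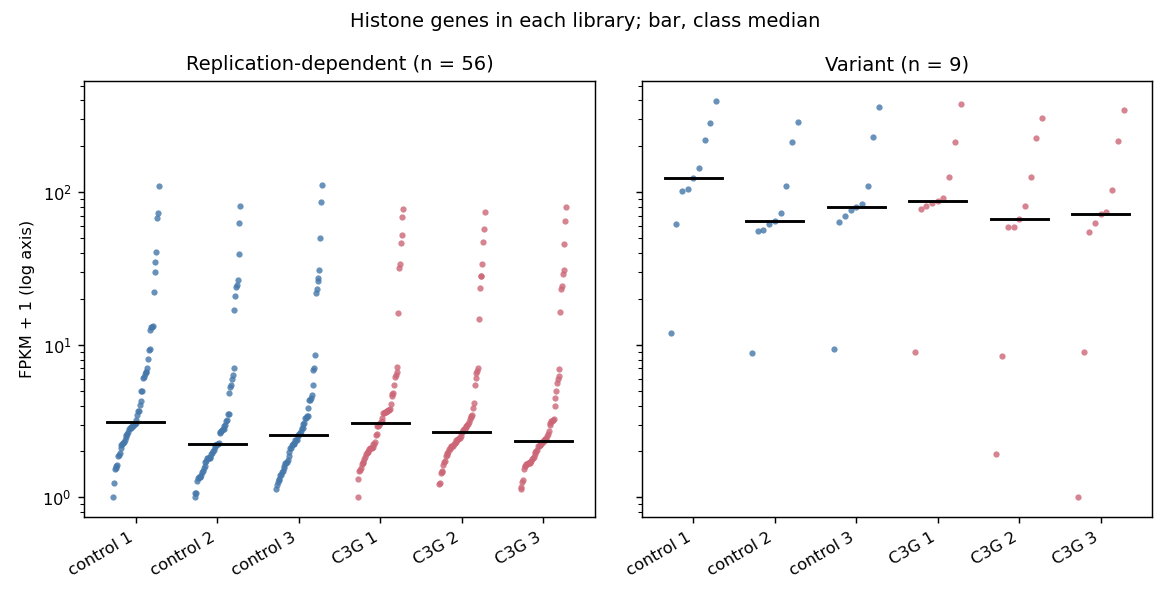
FPKM + 1 on a log axis for each of the 56 replication-dependent genes (left) and the 9 variant genes (right) in each of the 6 libraries, with 1 point per gene and a bar at the class median. The replication-dependent medians lie between 1.24 and 2.14 FPKM, with a tail of 8 genes whose mean level reached 10 FPKM, and the variant medians lie between 64.2 and 124 FPKM; the low variant points in C3G replicates 2 and 3 are H1fx.

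The replication-dependent sum rested on few genes. Mean FPKM over the 6 libraries was under 2 in 29 of the 56 genes, from 2 to 10 in 19 and at least 10 in 8. Those 8 genes held 71.5% to 81.1% of the class sum, depending on the library. Hist1h2ap and Hist1h2ao, near-identical H2A genes, led with mean levels of 80.6 and 64.3 FPKM, and they shared 92.7% and 93.1% of their stretches with other H2A genes. Hist1h1c, which encodes the linker histone H1.2, followed with 60.6 FPKM, and only 6.66% of its stretches were shared. The others were Hist1h2bc (33.0 FPKM), Hist1h4i (27.9 FPKM), Hist2h2aa2 (26.8 FPKM), Hist1h2ag (18.3 FPKM) and Hist2h2aa1 (14.5 FPKM). Only 1 of the 8, Hist1h2bc, had no stem-loop match in its annotated transcript.

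By family, the H2A genes had the largest sum of the replication-dependent class and the H3 genes the smallest. Summed control FPKM was 263 ± 37.3 (SD, n = 3) for H2A, 69.2 ± 38.1 for H1, 53.2 ± 16.5 for H4, 51.7 ± 13.95 for H2B and 13.6 ± 5.00 for H3. With C3G the sums were 216 ± 20.2 for H2A, 59.4 ± 17.8 for H1, 48.1 ± 7.99 for H4, 59.5 ± 11.7 for H2B and 14.7 ± 4.10 for H3. The order of H1, H2B and H4 was within their spread in both groups. All 10 replication-dependent H3 genes had a mean level of 0.684 to 2.02 FPKM, while the H3.3 genes H3f3a and H3f3b had 74.1 and 230 FPKM. Replication-dependent genes with the stem-loop had a median mean level of 2.00 FPKM and those without it 1.70 FPKM. Among those with it, the 17 whose annotated transcript ran on for over 100 bases had a median of 1.28 FPKM, and the 21 with at most 100 further bases had 3.01 FPKM. FPKM is divided by the length of the gene model, so a model that runs past the mRNA end gives a lower value for the same number of fragments. Whether this, the family or shared sequence had a part in the difference between these medians was not tested.

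Among the variants, H1f0 and H3f3b stood highest and H2afy lowest. H1f0, which encodes the linker histone H1.0 typical of slowly dividing and differentiated cells, had 396, 289 and 359 FPKM in control libraries 1 to 3 and 378, 307 and 346 FPKM in C3G libraries 1 to 3. H3f3b, 1 of 2 genes for H3.3, had 282, 213 and 230 FPKM in the controls and 213, 227 and 217 FPKM with C3G. In every library H1f0 lay above H3f3b. H2afy, which encodes macroH2A1, had 10.99, 7.80 and 8.36 FPKM in the controls and 7.98, 7.46 and 7.95 FPKM with C3G. It was the only variant with a mean level under 10 FPKM, and 7 to 11 of the replication-dependent genes stood above it in the 4 libraries in which it was the lowest variant.

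The 2 genes that mark the classes lay far apart. H2afz (ENSMUSG00000037894.13, chr3:137864487-137866922, plus strand), which encodes H2A.Z, had 100, 108 and 108 FPKM in control libraries 1 to 3 and 125, 124 and 102 FPKM in C3G libraries 1 to 3. Its mean of 106 ± 4.55 FPKM (SD, n = 3) in controls and 117 ± 12.9 FPKM (SD, n = 3) with C3G gave overlapping groups. Hist1h2bq (ENSMUSG00000069307.6, chr13:21806612-21810197, minus strand), an H2B gene, had 0.532, 0.357 and 0.391 FPKM in the controls and 0.521, 0.879 and 0.645 FPKM with C3G. The groups overlapped here too, through the libraries numbered 1. Hist1h2bq shared 95.9% of its stretches with Hist1h2br and other H2B genes, and its longest transcript spans 3 exons and 2015 bases.

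The 5 remaining variants lay close together. H3f3a had 60.9, 72.4 and 76.0 FPKM in the controls and 84.1, 79.7 and 71.4 FPKM with C3G. H2afv, which encodes H2A.V, a close relative of H2A.Z, had 124, 55.2 and 69.1 FPKM in the controls and 90.2, 57.7 and 61.5 FPKM with C3G. H2afx, whose product H2A.X is phosphorylated at DNA breaks, had 104, 55.0 and 82.2 FPKM in the controls and 86.5, 57.9 and 73.1 FPKM with C3G. H2afj, which encodes H2A.J, had 143, 64.2 and 62.9 FPKM in the controls and 76.5, 66.1 and 54.2 FPKM with C3G. The libraries numbered 1 were the highest of their group in H2afv, H2afx and H2afj, and in these 4 genes the groups overlapped and the means over all libraries, 74.1 to 77.9 FPKM, did not differ beyond their spread. H1fx, the fifth, had a mean of 73.6 FPKM but a spread unlike theirs.

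H1fx (ENSMUSG00000044927.6, chr6:87980421-87981637, minus strand), which encodes the linker histone variant H1X, was the histone gene that passed both thresholds used here between C3G and control, an unadjusted limma p under 0.05 and a fold change of 1.2. Its level was 220, 60.8 and 78.8 FPKM in control libraries 1 to 3. In C3G replicate 1 it was 80.6 FPKM, in C3G replicate 2 it was 0.932 FPKM, and in C3G replicate 3 it was listed at 0. The groups overlapped, since C3G replicate 1 lay above control replicates 2 and 3, whereas the other 2 C3G libraries lay far under every control. H1fx made up 15.3% of the summed variant FPKM in control replicate 1, 6.57% to 7.33% in control replicates 2 and 3 and C3G replicate 1, and at most 0.10% in C3G replicates 2 and 3.

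With limma on log2(FPKM + 1) over all genes, H1fx fell by 4.25 on the log2 scale with C3G (standard error 1.58, unadjusted p = 0.0320, adjusted p = 0.992). This was the most negative log2 fold change of the 11234 genes, and the two-sided exact permutation test gave p = 0.3, where 0.1 is the smallest that 3 against 3 libraries allow. The size depends on the constant added, since the value in C3G replicate 3 is 0: with 0.1 in place of 1 the log2 fold change was -5.65. The call was lost with an ordinary linear model, in which the unadjusted p rose to 0.107. In limma it was also lost without control replicate 1, at a p of 0.0644 and a log2 fold change of -3.70, and without control replicate 3, at a p of 0.0553 and -4.44. Leaving out C3G replicate 2 or C3G replicate 3 lost it too, at a p of 0.0994 and 0.102 and log2 fold changes of -3.51 and -3.04. Without C3G replicate 1 it was -6.21, at a limma p of 0.000104 and an adjusted p of 0.584. In a limma fit that pairs the libraries by number, with a replicate block, p was 0.00691 and the adjusted p was 0.794. With the libraries numbered 1 left out of both groups, limma gave H1fx a log2 fold change of -5.66, at an unadjusted p of 8.237e-06 and an adjusted p of 0.0925.

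A fall from such a level to near 0 was rare in these libraries. Of 1165 genes that reached 50 FPKM in some library, 2 were under 1 FPKM in another, H1fx and Gm45717. The single exon of H1fx has a GC content of 71.3%, the highest of the 65 histone genes, and overlaps exons of Gm47286 on the same strand and Gm5577 on the opposite strand, neither of which was listed. Its listed neighbours had log2 fold changes of 0.01 (Hmces) and -0.06 (Rab7, on the same strand). After the GC correction its log2 fold change was -3.70, with a limma p of 0.0301 and, with the replicate block added, of 0.0236. Whether the division of reads in this locus had a part in the values of H1fx was not tested.

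**Figure D2:**
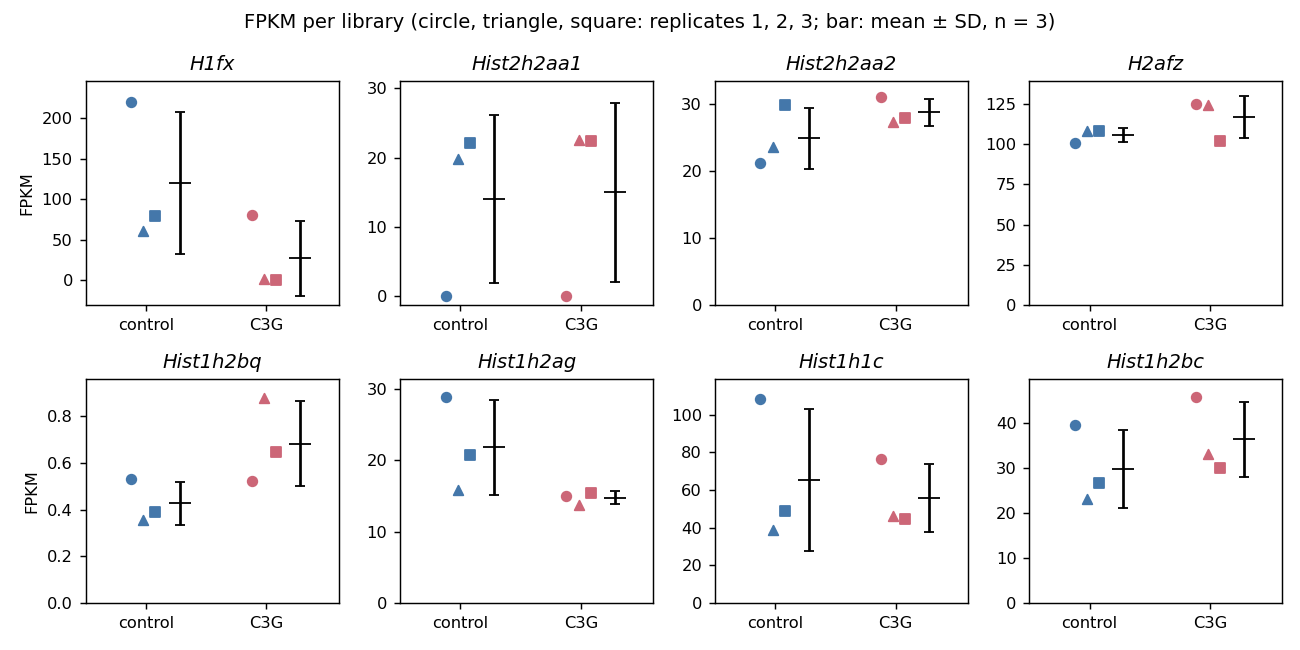
FPKM of 8 histone genes in the control (blue) and C3G (red) libraries, with circles, triangles and squares for replicates 1, 2 and 3 and a bar for the mean ± SD (n = 3) of each group. H1fx is near 0 in C3G replicates 2 and 3, Hist2h2aa1 is at 0 in both libraries numbered 1, and only Hist1h2ag has no overlap between the groups.

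Beyond H1fx, no histone gene passed both thresholds in the fit by group. That made 1 of 65 called, in the lower direction, beside 0.65% of all 11234 genes called in either direction, 0.401% higher and 0.249% lower. None of the 11234 genes passed an adjusted limma p of 0.05, where 74 had an unadjusted p under 0.05, and the ordinary linear model gave 48 calls at the 2 thresholds. The 56 replication-dependent genes had 0 calls. In the fit with the replicate block 6 of the 65 were called, beside 1.5% of all genes. They were H1fx, Hist1h2ag and Hist1h2ah in the lower direction and Hist2h3c1, Hist2h3c2 and Hist2h2bb in the higher direction, with an adjusted limma p of 0.794 for each. Hist2h2bb was listed only through its C3G mean, which fixed its direction in advance. The GC correction called 3 of the 65 (1.2% of all genes), the same correction plus the replicate block 6 (2.19%), and the fit of replicates 2 and 3 alone 6 (1.7%), with H1fx among them each time. Of the 6 called with the replicate block, H1fx, Hist2h3c2 and Hist2h2bb were also called once GC was corrected in that fit, and Hist1h2ag, Hist1h2ah and Hist2h3c1 were not.

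Control and C3G values were without overlap in 1 of the 65 histone genes, beside 4.02% of all genes, 2.55% higher and 1.48% lower. That gene was Hist1h2ag (ENSMUSG00000069301.5, chr13:22042460-22042944, minus strand), an H2A gene sharing 77.6% of its stretches with other H2A genes. It had 28.9, 15.8 and 20.8 FPKM in control libraries 1 to 3 and 15.1, 13.8 and 15.5 FPKM in C3G libraries 1 to 3. The gap between the lowest control and the highest C3G library was small beside the spread of the controls. The difference was -0.49 on the log2 scale (standard error 0.231), lower in 3 of 3 pairs. It was -0.28 without control replicate 1 and -0.70 without control replicate 2. The limma p was 0.0708 (adjusted p = 0.992) and the p of the exact permutation test 0.1, and with the replicate block the limma p was 0.0401. After the GC correction the log2 fold change of Hist1h2ag was -0.21, at a limma p of 0.257 without the block and 0.0711 with it.

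The replication-dependent genes of highest level did not pass either. Hist1h2ap (chr13:21833026-21833507, minus strand) had 72.3, 80.1 and 111 FPKM in the controls and 67.9, 73.2 and 79.2 FPKM with C3G. Hist1h2ao (chr13:21810465-21810944, plus strand) had 66.9, 61.7 and 85.3 FPKM in the controls and 51.4, 56.8 and 63.9 FPKM with C3G. In both, control replicate 3 was the highest library, and C3G was lower in 3 of 3 pairs. Their log2 fold changes were -0.23 and -0.30, at limma p values of 0.290 and 0.149 and exact permutation p values of 0.4 and 0.2. With the replicate block the limma p was 0.164 for Hist1h2ap and 0.0700 for Hist1h2ao. After the GC correction the log2 fold changes were 0.06 and -0.02, and without control replicate 3 they were -0.05 for Hist1h2ap and -0.17 for Hist1h2ao. Hist1h1c (chr13:23738808-23740367, plus strand) had 108, 38.6 and 48.9 FPKM in the controls and 76.7, 46.3 and 44.5 FPKM with C3G, and here both libraries numbered 1 were the highest of their group. It differed by -0.12 on the log2 scale, at a limma p of 0.774, and by 0.31 without control replicate 1.

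The 5 replication-dependent genes called with the replicate block were Hist1h2ag, described above, and 4 of lower level. Hist1h2ah, an H2A gene (chr13:22035164-22035568, minus strand), had 12.2, 5.32 and 7.54 FPKM in control libraries 1 to 3 and 6.203, 4.45 and 5.21 FPKM in C3G libraries 1 to 3. It was lower in every pair, with overlapping groups and a log2 fold change of -0.51 whose limma p was 0.118 without the block and 0.0312 with it. Hist2h3c2, an H3 gene (chr3:96238108-96239127, minus strand), had 1.12, 1.99 and 1.56 FPKM in the controls and 2.56, 3.17 and 1.73 FPKM with C3G. Its copy Hist2h3c1 (chr3:96246685-96248509, plus strand), which shares every stretch with other transcripts, had 1.25, 0.407 and 0.750 FPKM in the controls and 2.00, 1.40 and 0.915 FPKM with C3G. Both were higher in 3 of 3 pairs, with log2 fold changes of 0.44 and 0.44 and limma p values of 0.0823 and 0.107 without the block and 0.0463 and 0.0398 with it. Hist2h2bb, an H2B gene of the same cluster with all its stretches shared, had 0.242, 0.274 and 0.686 FPKM in the controls and 1.09, 0.437 and 1.02 FPKM with C3G, and its limma p was 0.0892 without the block and 0.0478 with it. Its control and C3G means were 0.401 and 0.851 FPKM. It was therefore listed only through C3G, and the listing floor of about 0.50 FPKM fixed its direction in advance.

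The remaining genes of high level were Hist1h2bc and Hist1h4i. Hist1h2bc (chr13:23684199-23692908, plus strand), an H2B gene whose annotated transcript has 2 exons, had 39.5, 23.03 and 26.6 FPKM in the controls and 45.7, 33.1 and 30.01 FPKM with C3G. It was higher in every pair, but the groups overlapped and the log2 fold change of 0.29 had a limma p of 0.294. Without control replicate 1 Hist1h2bc passed both thresholds, at a log2 fold change of 0.51 and a limma p of 0.0333, and with replicates 2 and 3 only it passed at 0.34 and a limma p of 0.0216. Hist1h4i (chr13:22040636-22041362, minus strand), the leading H4 gene, had 33.6, 25.4 and 25.0 FPKM in the controls and 32.8, 27.2 and 23.3 FPKM with C3G, which left a log2 fold change of -0.01 (limma p of 0.952). In both genes the libraries numbered 1 were the highest of their group.

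For the other variants the limma p ran from 0.335 (H3f3a) to 0.963 (H1f0). Their log2 fold changes were 0.17 for H3f3a, 0.14 for H2afz (with a limma p of 0.411 and an exact permutation p of 0.3), -0.01 for H1f0, -0.12 for H2afx, -0.13 for H3f3b, -0.18 for H2afv, -0.18 for H2afy and -0.36 for H2afj. None of these differences was clearly larger than its own standard error. Hist1h2bq was 0.23 higher on the log2 scale with C3G, in 2 of 3 pairs, at a limma p of 0.115 and an exact permutation p of 0.2. With replicates 2 and 3 only its limma p was 0.0248 (adjusted p = 0.9999). Its control and C3G means were 0.427 and 0.682 FPKM, so Hist1h2bq was listed only through C3G. The listing floor of about 0.50 FPKM thus fixed its direction in advance, and these p values do not allow for that. At so low a level the size depends on the constant added, and with 0.1 in place of 1 the log2 fold change of Hist1h2bq was 0.56.

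The histone genes as a group had no direction that held across libraries and settings. Of the 65, 24 had a positive log2 fold change and 41 a negative one, so that 36.9% were positive, beside 62% of all genes. The median log2 fold change was -0.05 in the 65 genes, -0.02 in the replication-dependent genes and -0.13 in the variants, beside 0.06 in all genes. With replicates 2 and 3 only, the medians were 0.02, 0.04 and -0.05, beside -0.01 in all genes. The median of the 65 was 0.08 without control replicate 1, -0.19 without control replicate 2, -0.09 without control replicate 3, -0.13 without C3G replicate 1, -0.06 without C3G replicate 2 and 0.01 without C3G replicate 3. The families differed in their medians: it was -0.31 in H2A (3 of 16 positive), 0.22 in H2B (11 of 14 positive), -0.09 in H1 (1 of 4), 0.00 in H3 (5 of 10) and -0.06 in H4 (2 of 12). With replicates 2 and 3 only, the H2A median was -0.07 and the H2B median 0.20. Of the H2B genes, Hist1h2bb, Hist1h2bl, Hist1h2bq and Hist2h2bb reached the listing floor of about 0.50 FPKM only through their C3G mean. Hist1h2ba reached it only through its control mean. The listing fixed the direction of these genes in advance, so the H2B count and median are no evidence of a direction. Single log2 fold changes ran from -0.79 to 0.21 in H2A, -0.55 to 0.41 in H2B, -0.17 to 0.03 in H1, -0.21 to 0.44 in H3 and -0.42 to 0.12 in H4. No difference between the families was tested, and many genes of a family share their sequence.

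**Figure D3:**
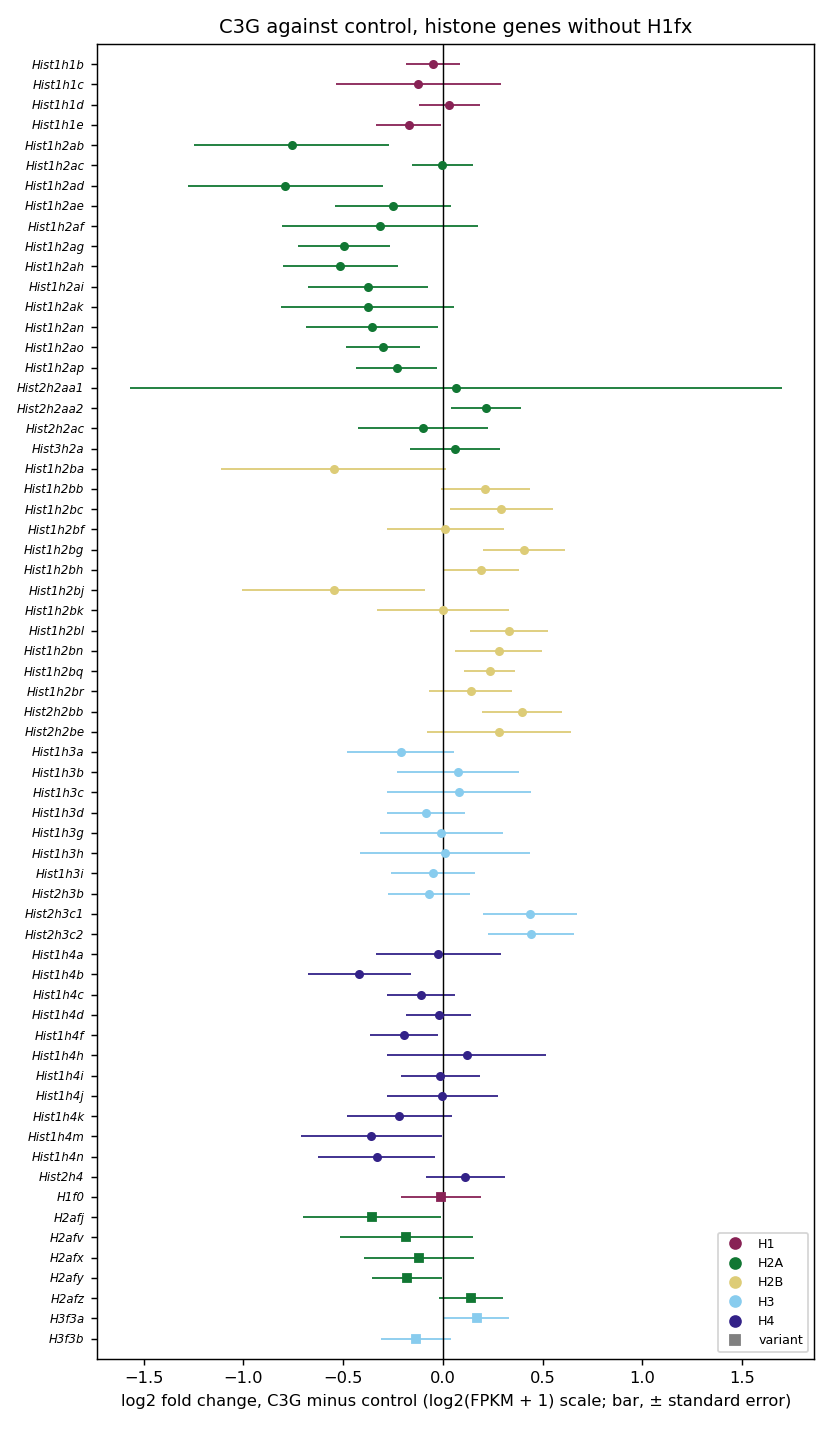
Log2 fold change of C3G against control on the log2(FPKM + 1) scale for 64 histone genes (H1fx, at -4.25, is left off the axis), with the limma standard error as a bar, circles for replication-dependent genes and squares for variants, coloured by family. Most H2A points lie left of 0 and most H2B points right of it, and Hist2h2aa1, at 0 in both libraries numbered 1, has by far the widest bar.

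Control replicate 1 stood apart from the other libraries, and most histone genes were high in it. Its log2(FPKM + 1) values departed from those of control replicates 2 and 3 in the order of the GC content of the transcript, with Spearman's rho 0.749 across 11211 genes and 0.385 across the 65 histone genes, which are not independent replicates and share the library. C3G replicate 1 departed from the other C3G libraries in the same order, with rho 0.631 across all genes and 0.0794 across the 65. Control replicate 1 was above both other controls in 51 of the 65 (78.5%), beside 36.5% of all genes, and it was the highest of the 6 libraries in 39 of them (60%), beside 28.6% of all genes. The median departure was 0.56 on the log2 scale in the histone genes and -0.20 in all genes. Examples among low genes were Hist1h2ab, with 12.4, 2.51 and 3.34 FPKM in the controls and 2.66, 1.91 and 2.94 FPKM with C3G, and Hist1h2ba, a testis-expressed H2B gene, with 4.00, 0.071 and 0.206 FPKM in the controls and 0.489, 0.222 and 0.140 FPKM with C3G. In both, 1 library held the difference between the group means. Once each library had been corrected for GC, the median log2 fold change was 0.03 in the histone genes and 0.00 in all genes.

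**Figure D4:**
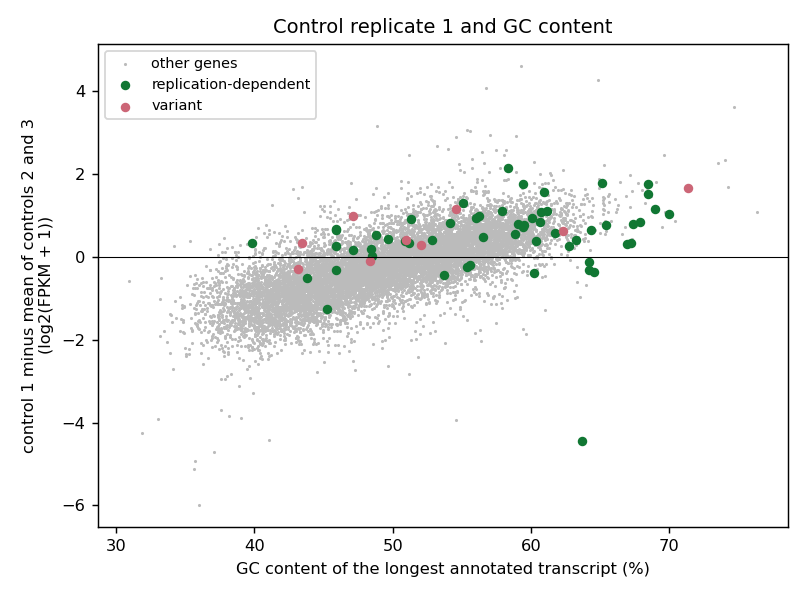
Departure of control replicate 1 from the mean of control replicates 2 and 3 on the log2(FPKM + 1) scale, against the GC content of the longest annotated transcript in percent, with 1 point per gene: grey for other genes, green for replication-dependent and red for variant histone genes. The cloud rises with GC content (Spearman's rho 0.749 across genes), most histone points lie above 0 (median 0.56), and the green point far below the cloud is Hist2h2aa1.

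Hist2h2aa1 went against that pattern. This H2A gene (chr3:96245497-96246082, plus strand) was listed at 0 in control replicate 1 and in C3G replicate 1, and stood at 19.8 and 22.1 FPKM in the other 2 controls and at 22.6 and 22.3 FPKM in the other 2 C3G libraries. Its partner in an inverted duplication, Hist2h2aa2 (chr3:96239749-96240276, minus strand), had 21.2, 23.6 and 29.9 FPKM in the controls and 31.0, 27.3 and 28 FPKM with C3G. The zeros of Hist2h2aa1 thus went with the replicate number in both groups, and Hist2h2aa2 was present in all 6 libraries. Every 75-base stretch of both transcripts also occurs in another transcript. The sum of both was 21.2 and 31.0 FPKM in the libraries numbered 1 and 43.4 to 52.0 FPKM in the other 4. How shared reads were divided between the 2 genes was not tested. Of all genes that reached 10 FPKM and were listed at 0 in some library, 6 in number, Hist2h2aa1 was the only 1 at 0 in exactly those 2 libraries.

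The genes that make, process and handle histone mRNA and protein were mostly listed, and the counts of calls in 3 lists of them were read against all genes, of which 0.65% were called and 62% had a positive log2 fold change. In the list for histone mRNA processing and transcription, 18 of 19 genes were listed and 0 were called, a count near that share, with 10 positive and 8 negative log2 fold changes and a median of 0.05 (5 and 13, and -0.04, with replicates 2 and 3 only). Over all genes the median with replicates 2 and 3 only was negative too, at -0.01. Slbp, the stem-loop binding protein, had 9.24, 8.59 and 8.73 FPKM in control libraries 1 to 3 and 5.02, 7.78 and 8.78 FPKM in C3G libraries 1 to 3. Only C3G replicate 1 was clearly low, and the log2 fold change of -0.30 had a limma p of 0.213. Srrt (ARS2), a partner of the cap-binding complex, had 65.4, 38.7 and 40.6 FPKM in the controls and 37.5, 33.7 and 35.7 FPKM with C3G. Its groups did not overlap, and the log2 fold change of -0.39 had a limma p of 0.133 and an exact permutation p of 0.1. Mtpap, a poly(A) polymerase of mitochondria, had 3.40, 8.83 and 7.73 FPKM in the controls and 8.31, 8.39 and 8.50 FPKM with C3G. It differed by 0.38 on the log2 scale at a limma p of 0.262, and its lowest library was control replicate 1.

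Of the histone chaperones and deposition factors 26 of 26 were listed and 0 were called, again near the 0.65% of all genes, with 16 positive and 10 negative log2 fold changes and a median of 0.07 (9 and 17, and -0.05, without the libraries numbered 1). Hjurp, the chaperone of the centromeric H3 variant, had 23.99, 22.2 and 26.8 FPKM in the controls and 31.8, 32.0 and 26.9 FPKM with C3G. The groups did not overlap, by a narrow margin, and the log2 fold change of 0.30 had a limma p of 0.0974 and an exact permutation p of 0.1. Chaf1a, the large subunit of chromatin assembly factor 1, had 58.5, 38.0 and 41.1 FPKM in the controls and 29.9, 36.2 and 38.4 FPKM with C3G, a log2 fold change of -0.37 at a limma p of 0.127. Znhit1, a subunit of the SRCAP complex that deposits H2A.Z, had 91.3, 45.1 and 39.4 FPKM in the controls and 49.4, 39.0 and 35.3 FPKM with C3G, a log2 fold change of -0.41 at a limma p of 0.256. In both, control replicate 1 was the highest library.

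The S phase list had 24 of 24 genes listed and 0 called, also near the 0.65% of all genes, with 17 positive and 7 negative log2 fold changes and a median of 0.08, beside 0.06 for all genes. Without the libraries numbered 1 the S phase counts turned round, to 7 positive and 17 negative, and the median was -0.03, beside -0.01 for all genes. Cdt1, which licenses replication origins, had 16.2, 9.91 and 8.15 FPKM in the controls and 7.92, 8.18 and 7.74 FPKM with C3G, a log2 fold change of -0.42 at a limma p of 0.137. E2f1, a transcription factor of S phase entry, had 26.6, 22.6 and 22.1 FPKM in the controls and 18.9, 21.8 and 20.7 FPKM with C3G. The groups of E2f1 did not overlap, and the log2 fold change of -0.20 had a limma p of 0.226 and an exact permutation p of 0.1. Cdk1, the mitotic kinase, had 18.9, 48.2 and 52.0 FPKM in the controls and 45.7, 49.0 and 47.9 FPKM with C3G, a log2 fold change of 0.38 at a limma p of 0.345. Control replicate 1 was the outlying library in Cdt1 and in Cdk1, high in the first and low in the second.

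The labelled cell type was checked by its markers. All 7 osteoblast lineage markers were listed, with Col1a1 at 923 to 4432 FPKM, Runx2 at 5.46 to 9.07 FPKM and Sp7, a factor of later osteoblast differentiation, at 0.237 to 0.857 FPKM. Of 13 markers of macrophages, endothelium, adipocytes, muscle and epithelium, only the macrophage gene Cd68 was listed, at 0.144 to 1.25 FPKM.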

How the data were processed

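RNA-seq was analysed in 3 control and 3 C3G libraries of MC3T3-E1 cells, grouped and numbered by the sample labels. The authors calculated FPKM values with Ballgown, and these deposited FPKM values (1 per gene and library) were the starting point; no further normalization between libraries is stated. The submitters' processing notes also name cutadapt, HISAT2 2.1.0, StringTie, STAR 2.5.2b and the build hg19, with no role given, although the identifiers are mouse Ensembl genes. Of 11234 listed genes, 11211 matched a GENCODE M21 symbol, and 9812 carried the same version number. The depth per library is unknown, so no counting error can be given.

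Values were transformed to log2(FPKM + 1), without a filter, and fitted by group with limma 3.58.1 (eBayes with trend) under R 4.3.3. Fold changes of low genes come out too small on this scale. A gene was called where its two-sided p, unadjusted, was under 0.05 and its fold change reached 1.2, the values the study gives, with Benjamini-Hochberg adjustment over all genes. Single genes were also compared by a two-sided exact permutation test. Shared 75-base stretches, GC content and lengths came from the longest annotated transcript. Other steps used scipy 1.17.1, numpy 2.4.6 and pandas 2.3.3 under Python 3.11.15.

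The histone genes, the gene lists and the tests were chosen with earlier results of these data known. Full values are given for H2afz, Hist1h2bq, every member called or without overlap between groups, the 3 members of each class with the highest mean and all listed variants, and for up to 3 genes of each related list by the smallest p; other genes were named after their values were seen. In the list for histone mRNA processing, Zfp100 was read as Zfp473, Ars2 as Srrt and Symplk as Sympk. Same-numbered libraries deviated from their group means together. Pearson's r across genes was 0.653, 0.580 and 0.440 for numbers 1, 2 and 3, against -0.640 to 0.307 for different numbers. Departures within a group cancel out by construction, so these correlations are not independent of each other. Numbers 2 and 3 crossed gave 0.307 and 0.300, not far under 0.440. The numbers were used as pairs in the replicate block, but the labels state no pairing, and it was read from these same values. Alternatives were another pseudocount, a filter on low values, no moderation, quantile normalization, median centring, a GC correction, the replicate block, both together, each library left out, and replicates 2 and 3 only.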

Additional observations from a re-analysis of the deposited data

How the results depend on the processing

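The comparison of all genes gave 73 calls; it gave 48 with an ordinary linear model, 135 with the GC correction, 169 with the replicate block, 246 with both, 191 with replicates 2 and 3 only and 40 to 144 with 1 library left out. For the histone genes the count of 1 became 0, 3, 6, 6 and 6 in the same settings and 1 to 5 with 1 library left out (4 without control replicate 1 and 5 without control replicate 2). Smallest adjusted limma p values for any gene ran from 0.0624 to 1.00. H1fx remained negative in all 15 alternatives and past both thresholds in 10. H2afy, H2afz, H3f3a and Hist1h2ao did not reverse and missed the thresholds in all 15, but with the GC correction H2afz came to 0.05, H3f3a to 0.00 and Hist1h2ao to -0.02. Hist1h2ag passed with the replicate block and without control replicate 2. The block also called Hist1h2ah, Hist2h3c1, Hist2h3c2 and Hist2h2bb, and it changed no other call among the histone genes. The list for histone mRNA processing had 1 call with the GC correction (Srrt) and 1 with both corrections (Lsm1), and the chaperone list had 1 with replicates 2 and 3 only (Yeats4). Reversed log2 fold changes, none of them called, were H1f0 (-0.14 to 0.09 with 1 library left out, 0.02 with replicates 2 and 3 only), H2afj (-0.56 to 0.03 with 1 library left out), H2afv (-0.43 to 0.15 likewise), H2afx (-0.37 to 0.09 likewise, and 0.10 with the GC correction and with both), H3f3b (0.00 with replicates 2 and 3 only), Hist1h1c (-0.42 to 0.31 with 1 library left out, 0.06 with replicates 2 and 3 only) and Hist1h2ap (0.06 with the GC correction and 0.06 with both). The mean ratio of summed FPKM, 0.396 in controls and 0.400 with C3G, was 0.456 and 0.497 without the highest gene of each class and 0.152 and 0.177 without genes of over 50% shared stretches. After the GC correction it was 0.393 in controls and 0.441 with C3G. Without that correction, the mean difference of class medians (replication-dependent minus variant) was -5.04 in controls and -4.81 with C3G on the log2 scale. The causes were not tested, apart from the smaller number of genes or libraries in some settings. Hist1h2bq has no value under the filter on low values. Without fragment counts, values near 0 cannot be told from missing detection.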
